A study of Homo sapiens with 3 samples.

Results

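The proteasome subunit genes were followed in PANC-1 cells left untreated or exposed to cantharidin or okadaic acid (OA). A gene was included when the symbol of its RefSeq transcript was PSMA, PSMB, PSMC, PSMD, PSME, PSMF or PSMG with a number and nothing after it, which gave 48 genes, with 63 probes, of the 19699 named genes on the arrays. PANC-1 is an established human pancreatic cancer line, and cantharidin and OA both inhibit protein phosphatase 2A (PP2A), which removes phosphate groups from proteins. There were 3 arrays of Cy3-labelled total RNA, with 1 array for each group: control cells, for which the labels name no agent and no vehicle, cells with 20 µM cantharidin, and cells with OA, each agent given for 24 h. The label of the OA sample gives 20 µM, while the treatment text shared by the samples does not make clear whether this dose applied to both agents. The labels name no genetic change in any group, and each value below comes from 1 RNA sample, so the differences could not be set against a spread between cultures and none was tested.

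The proteasome degrades proteins that carry ubiquitin chains. Its barrel-shaped 20S core is built from rings of alpha subunits, which gate the entrance, and beta subunits, some of which carry the peptide-cutting sites. The 19S regulatory particle caps the core, binds ubiquitin, removes it and threads the protein inwards with a ring of ATPases. Dedicated chaperones, which are not part of the finished particle, build the core and the cap. In cells exposed to interferon, other beta subunits replace the standard catalytic ones to form the immunoproteasome, and the PA28 activators can take the place of the 19S cap.

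Intensities are printed as scanned, in the order control, cantharidin and OA. Differences and folds were taken after each array had been scaled to its 75th percentile, at intensities of 784, 713 and 936, so a fold is not the plain quotient of the intensities beside it. A gene was called at 1.5-fold, the threshold that the study used. Replicate spots of the same probe, in the signal range of these genes, gave a spot SD of a difference of 0.12 on the log2 scale for cantharidin against control, 0.10 for OA against control and 0.13 between the agents, where 1.5-fold is 0.58. The spread between separate cultures is not part of this figure. The labelled cell type was checked on markers: the epithelial keratins KRT7, KRT8, KRT18 and KRT19 and the mesenchymal VIM were well above background on all arrays, while the acinar CPA1 and the endothelial PECAM1 were dim, below that mark, on all of them. The keratins did not move together: KRT18 read 70664, 127869 and 193320.0, 1.99-fold and 2.29-fold higher than control after scaling, whereas KRT8 read 51898, 20992 and 53027 and was 2.25-fold lower under cantharidin, and KRT7 read 19966, 12276 and 14239 and was 1.67-fold lower under OA. KRT19 read 2503, 3094 and 7746 and was 2.59-fold higher under OA. Of 10 markers of other cells (acinar, endocrine, leukocyte and endothelial), the 8 other than CPA1 and PECAM1 were well above background on all arrays. The summed intensity of the leukocyte markers PTPRC, CD3E and CD14 was 3166, 2325 and 11839, with CD14 alone at 2535, 1838 and 11044, and that of the endocrine markers INS and GCG was 992, 1135 and 1024. Their part in the results was not tested.

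All 3 arrays measured 46 of the 48 genes well above background, and their median brightness lay at the 90.9th percentile of all named genes. PSMA8, an alpha subunit of the testis, was measured well above background on none of them. PSMB11, a beta subunit of the thymus, was so only under cantharidin. Of the genes found by the symbol rule, those that make up the core and the cap in most cells were therefore all measured in each group.

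Under cantharidin, 10 of the 47 proteasome genes compared were at least 1.5-fold higher than in control cells, where 27.5% of all genes compared were, and 11 were at least 1.5-fold lower, against 34.1% of all genes. The remaining 26 were within 1.5-fold. PSMB11 is among the higher genes and could enter only through the array on which it was measured. The median log2 difference over the proteasome genes was -0.07, also with PSMB11 at its bound, with an SD of 0.97, and over all genes -0.16 with an SD of 1.55. Under OA, 9 of 46 genes were higher, against 28.1% of all genes, and 15 were lower, against 28.8%. The median was -0.12 with an SD of 0.85, beside 0.01 with an SD of 1.40 over all genes. The median under OA turned to 0.13 without scaling, a setting that moved the median of all genes to 0.26. Among genes in the same signal range as the proteasome genes, 30.5% were higher and 35.1% lower under cantharidin, and 30.3% higher and 31.8% lower under OA. In shares of the proteasome genes compared, the counts were 21.3% higher and 23.4% lower under cantharidin, and 19.6% higher and 32.6% lower under OA, and these have to be read beside the shares of all genes.

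**Figure D1:**
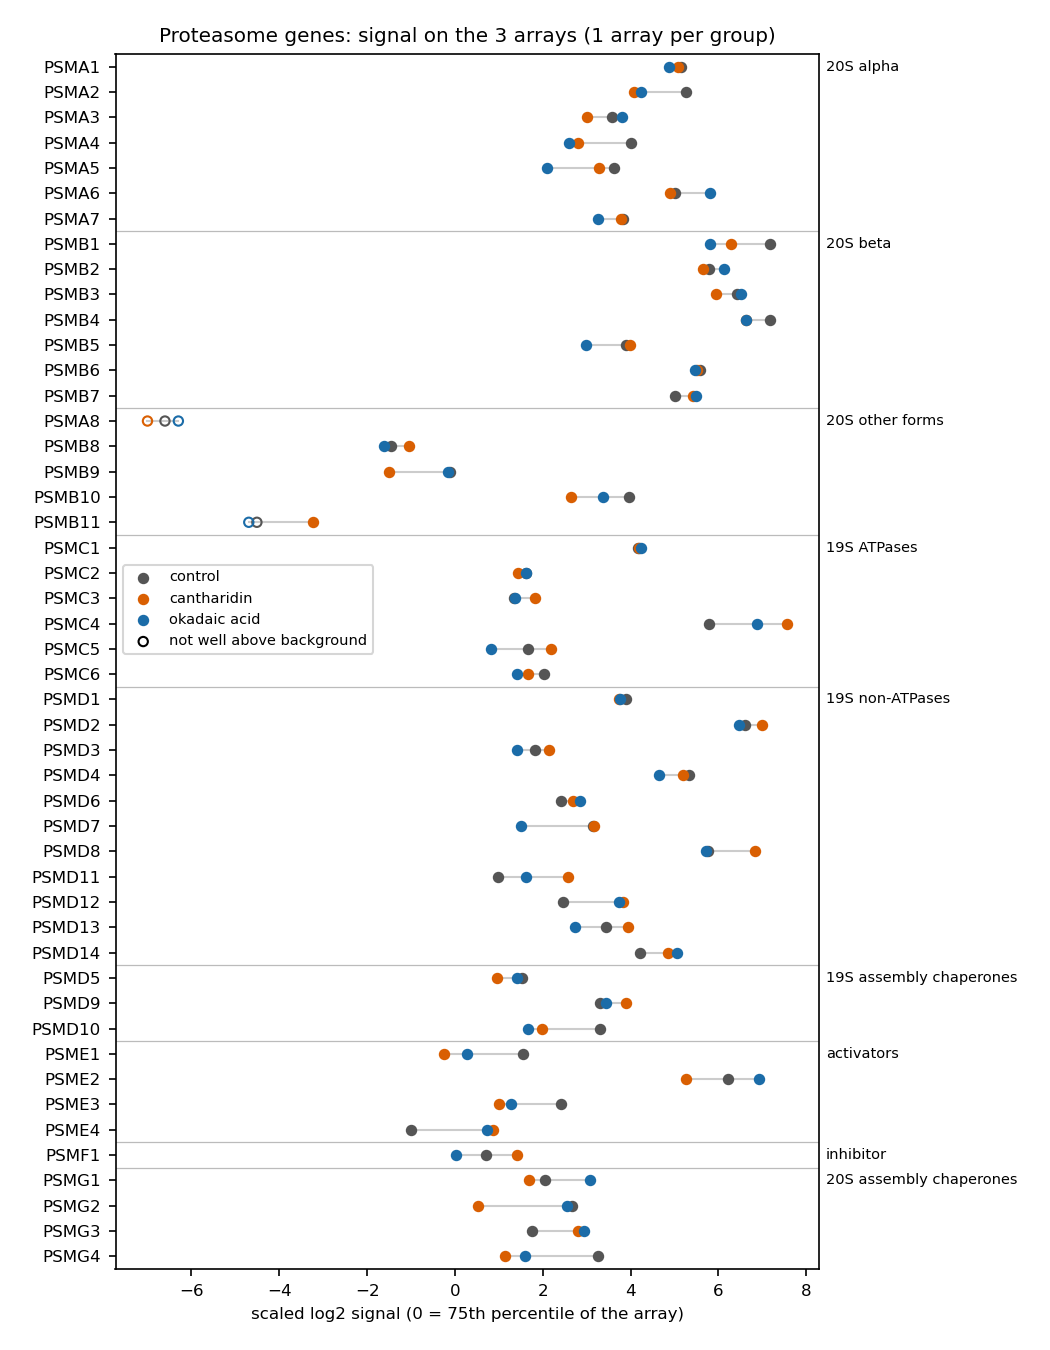
Scaled log2 signal of each of the 48 proteasome genes on the control (grey), cantharidin (orange) and OA (blue) array, 1 array per group, where 0 on the horizontal axis is the 75th percentile of the array and open circles mark signals not well above background. Most genes lie to the right of 0 on all 3 arrays, PSMA8 and PSMB11 lie at the left edge, and the points of PSMG2, PSMG4 and PSME4 are among those that spread widely.

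The particles were then taken separately. In cantharidin-treated cells, none of the 14 genes of the 20S core (PSMA1 to PSMA7 and PSMB1 to PSMB7) was higher and 3 were lower, with a median log2 difference of -0.24. Of the 17 genes of the 19S particle (PSMC1 to PSMC6 and 11 PSMD genes), 5 were higher and 0 lower, with a median of 0.40. The 5 higher genes are 29.4% of the 19S particle, close to the 27.5% over all genes, and the 3 lower genes are 21.4% of the core, beside 34.1% over all genes. The median of the 19S particle lay 0.64 above that of the core. Under OA, 1 core gene was higher and 5 lower, with a median of -0.41, while 4 genes of the 19S particle were higher and 5 lower, with a median of -0.06. These are 7.14% and 35.7% of the core and 23.5% and 29.4% of the 19S particle, where 28.1% of all genes were higher and 28.8% lower. The distance between the particles was then 0.35. Across the processing alternatives the core medians stayed below 0 under both agents and the 19S median under cantharidin stayed above 0, whereas the 19S median under OA ranged from -0.18 to 0.20. For cantharidin the distance lay between 0.48 and 0.79, and for OA between 0.29 and 0.36. These counts are small and rest on 1 array each, and the same control array served both agents.

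**Figure D2:**
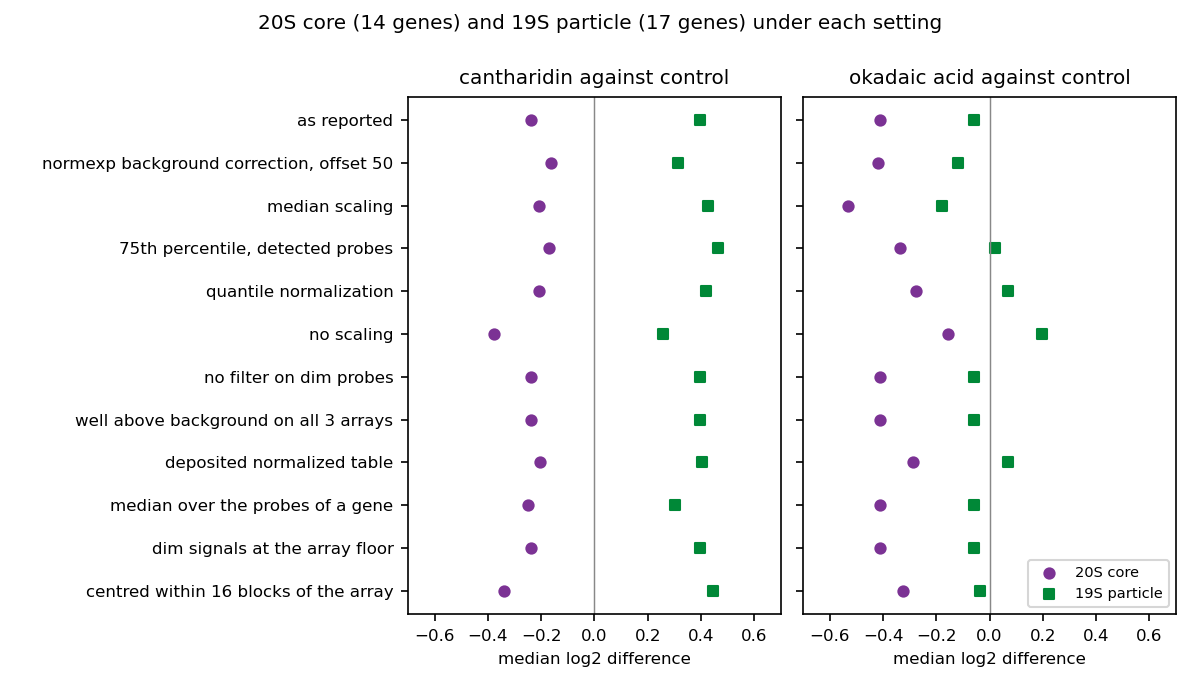
Median log2 difference of the 14 genes of the 20S core (purple circles) and the 17 genes of the 19S particle (green squares) for cantharidin (left) and OA (right) against control, with the reported setting and 11 alternatives as lines on the vertical axis. Under cantharidin the squares lie above 0 and the circles below 0 in every line, and under OA the squares lie on both sides of 0.

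Within the alpha ring of the core, PSMA2 and PSMA4 were lower under both agents. The PSMA2 intensities were 29980.3, 12043 and 17686, with the control array highest, or 2.26-fold lower with cantharidin and 2.02-fold lower with OA. PSMA4 read 12694, 4993 and 5703, or 2.31-fold and 2.66-fold lower. Alpha subunits do not cut peptides but form the gated outer rings onto which the cap docks. PSMA5, another ring member, read 9672, 6886 and 3993: it was 2.89-fold lower under OA and 1.28-fold lower, within the threshold, under cantharidin. The opposite order was seen for PSMA6, with 25197, 21274 and 52476, where OA stood apart at 1.74-fold higher and cantharidin differed by 1.08-fold. PSMA3, at 9345, 5709.9 and 13054, stayed within 1.5-fold of control under each agent and was 1.74-fold higher under OA than under cantharidin. PSMA1 and PSMA7 were within 1.5-fold in every comparison. Genes whose products share a ring in equal number thus differed in their change from control, from a log2 difference of -1.53 for PSMA5 to 0.80 for PSMA6 under OA.

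Among the constitutive beta subunits, PSMB1 was lower under both agents. Its intensities were 112580.0, 56022 and 52854, with the treated arrays close to each other and both below control, by 1.83-fold for cantharidin and 2.54-fold for OA. Its second probe gave 1.63-fold and 3.38-fold lower. PSMB1 cuts no peptides itself, whereas PSMB5, PSMB6 and PSMB7 carry the chymotrypsin-like, caspase-like and trypsin-like activity. Of these, PSMB5 read 11740.0, 11311 and 7421, where the OA array alone was low, at 1.89-fold below control. PSMB6 differed from control by 1.04-fold and 1.07-fold, and PSMB7 was 1.33-fold and 1.39-fold higher, all within the threshold. PSMB2, PSMB3 and PSMB4 were also within 1.5-fold of control, although PSMB4 came near the threshold with each agent, at 1.47-fold lower.

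The immunoproteasome subunits PSMB8, PSMB9 and PSMB10 replace PSMB5, PSMB6 and PSMB7, respectively, and also belong to the class I antigen presentation genes. PSMB9 read 730.4, 251 and 841, so that the cantharidin array alone was low, 2.65-fold below control, while OA differed from control by 1.04-fold. PSMB10 showed 12154, 4460.4 and 9690.1, with all 3 arrays apart: cantharidin was 2.48-fold below control and OA 1.497-fold below, at the edge of the threshold. PSMB8 was within 1.5-fold on all comparisons, at 288, 346 and 305. Compared directly, OA-treated cells had 2.55-fold more PSMB9 signal and 1.65-fold more PSMB10 signal than cantharidin-treated cells. PSMB11 read 34.5, 76.4 and 36.2 and was above control under cantharidin by at least 2.40-fold, bounded by the dimmest signal that counted as measured in control cells. The second probe of this gene did not stand well above background on the 3 arrays.

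In the 19S ATPase ring, PSMC4 stood apart from the other 5 genes. It read 43074, 134687 and 110818, with both treated arrays far above control, by 3.44-fold for cantharidin and 2.16-fold for OA. The ATPases unfold the substrate and open the gate of the core, and they form a ring with 1 copy of each. PSMC5 showed 2474, 3239.6 and 1666: OA was 1.77-fold lower than control and cantharidin 1.44-fold higher, the latter within the threshold. PSMC6 read 3207, 2242 and 2478 and was 1.54-fold lower under OA, a call lost when OA and control were compared without scaling, with quantile normalization, on the deposited normalized values or with detected probes setting the scale. The remaining ATPases PSMC1, PSMC2 and PSMC3 stayed within 1.5-fold of control.

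Among the 11 non-ATPases of the 19S particle, 4 were higher and 0 lower under cantharidin, and 3 were higher and 3 lower under OA. In shares this was 36.4% higher under cantharidin, beside 27.5% of all genes, and 27.3% each way under OA, near the 28.1% and 28.8% of all genes. PSMD11 read 1554, 4231 and 2859, which placed cantharidin highest, at 3.00-fold, and OA between, at 1.54-fold. PSMD12 read 4318, 10184 and 12528, with both treated arrays above control, at 2.60-fold and 2.43-fold. PSMD11 and PSMD12 are scaffold subunits of the lid, a sub-assembly of the cap. PSMD14, the lid enzyme that takes ubiquitin chains off the substrate, read 14544, 20459 and 31371 and was 1.55-fold and 1.81-fold higher. PSMD8, at 42696, 81740.0 and 48943, was high on the cantharidin array alone, 2.11-fold above control, and differed by 1.04-fold under OA.

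PSMD7, the partner of PSMD14 in the lid, had the largest drop from control under OA among the 19S genes on their brightest probes; the second PSMD2 probe, given below, fell further. It read 6919, 6440.4 and 2639 and differed by 1.02-fold under cantharidin but was 3.13-fold lower under OA. Its probe was printed in 10 spots, which ranged from 6502 to 7319 on the control array and from 2530 to 2835 on the OA array, without overlap. The 9 spots used on the cantharidin array ran from 5863 to 6861. The spots of 1 array share its RNA, so they bear on spot noise and not on the culture. PSMD6, the other subunit with 10 spots, read 4188, 4606 and 6729 and stayed within 1.5-fold of control, at 1.21-fold and 1.35-fold higher.

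The remaining calls in the 19S particle were lower signals under OA. PSMD13, a lid subunit, read 8466, 10921 and 6246, or 1.42-fold higher under cantharidin, within the threshold, and 1.62-fold lower under OA. PSMD4, a receptor for ubiquitin chains, read 31310.0, 26180.5 and 23577 and was 1.59-fold lower under OA and 1.09-fold lower under cantharidin. PSMD3 read 2784, 3124 and 2497 and passed the threshold only between the agents, 1.64-fold lower under OA than under cantharidin. PSMD1 and PSMD2, the large base subunits onto which ubiquitin receptors dock, were within 1.5-fold on their brightest probes, and their second probes are described below.

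**Figure D3:**
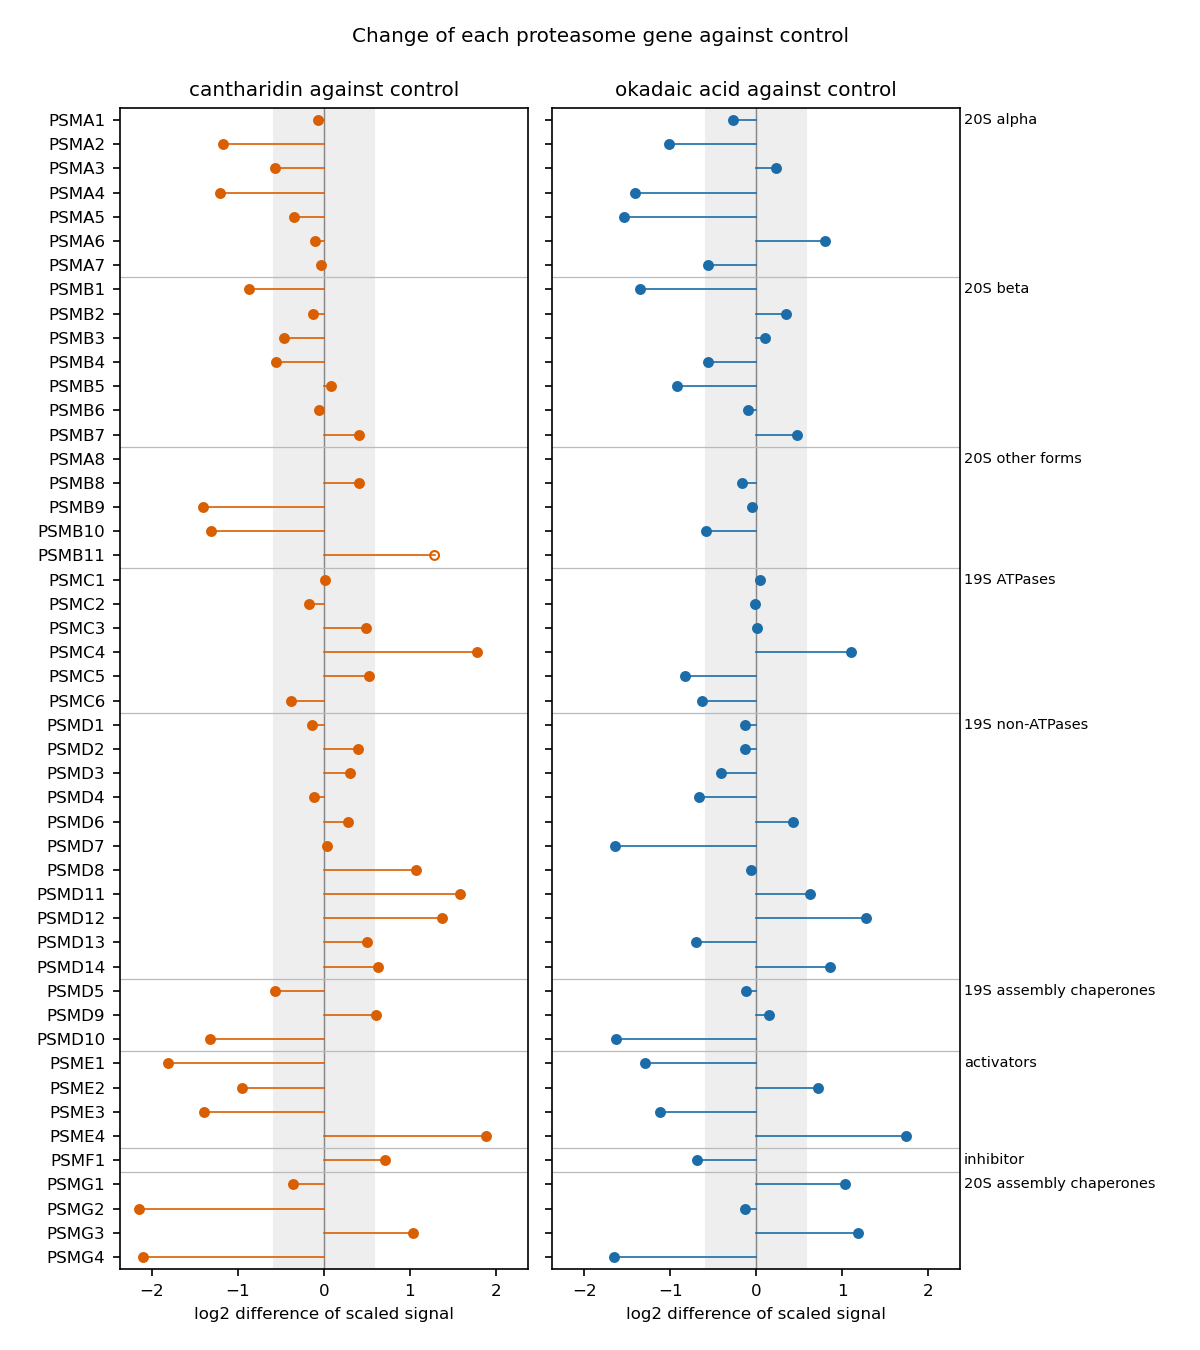
Log2 difference from control of each proteasome gene after scaling, for cantharidin (left) and OA (right), with 1 array per group, the grey band marking 1.5-fold and the open circle a gene (PSMB11) not well above background in control cells. Under cantharidin the 19S ATPase and non-ATPase genes beyond the band all lie to the right. Of the 19S assembly chaperones beyond it, PSMD9 lies to the right and PSMD10 to the left. The 20S alpha and beta genes beyond the band lie to the left except PSMB11, which lies to the right.

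The chaperones of the cap and of the core included genes with large drops from control. PSMD10 (gankyrin), which binds an ATPase during assembly of the cap, read 7704, 2803 and 2974, with the treated arrays close to each other and 2.50-fold and 3.09-fold below control. Its second probe gave 3.24-fold and 4.57-fold lower. PSMD9, another cap chaperone, read 7690.4, 10676 and 10197 and was 1.53-fold higher under cantharidin, just past the threshold, and 1.11-fold higher under OA. PSMD5, at 2277, 1393 and 2498, stayed within it on its brightest probe, and its second probe is described below.

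The chaperones PSMG1 and PSMG2 pair with each other, as do PSMG3 and PSMG4, to guide the alpha ring. PSMG2 read 4995, 1018 and 5456, with the cantharidin array alone low, 4.46-fold below control, while OA differed by 1.09-fold. Its partner PSMG1 read 3242, 2304 and 7908, with the OA array alone high at 2.04-fold and cantharidin 1.28-fold lower, within the threshold. PSMG3 read 2662, 4979.6 and 7209 and was 2.06-fold and 2.27-fold higher. By contrast, its partner PSMG4 read 7448, 1573 and 2836 and was 4.30-fold and 3.13-fold lower, and its second probe, dim under both agents, was at least 2.30-fold and at least 1.39-fold lower. The signals of paired chaperones therefore lay on opposite sides of control, or only 1 of the pair passed the threshold.

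On their brightest probes, all 4 activators passed the threshold under each agent, 1 higher and 3 lower under cantharidin and 2 each way under OA. Of all genes compared, 27.5% were higher and 34.1% lower under cantharidin, and 28.1% and 28.8% under OA. PSME1 and PSME2 encode the alpha and beta subunits of PA28, which form a mixed ring on the core. PSME1 read 2313, 597 and 1125, with the control array highest, or 3.52-fold lower with cantharidin and 2.45-fold lower with OA. PSME2 read 58086, 27274 and 114244, with cantharidin below and OA above control, at 1.94-fold lower and 1.65-fold higher. PSME3, which encodes the nuclear PA28 gamma, read 4154, 1431 and 2279.8 and was 2.64-fold and 2.18-fold lower. PSME4, the single-chain activator PA200, read 391, 1310.1 and 1563 on its brightest probe, 3.69-fold and 3.35-fold higher. Its second probe went the other way under cantharidin, 1.81-fold lower.

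PSMF1, which encodes the proteasome inhibitor PI31, read 1283, 1903 and 947 on its brightest probe. This was 1.63-fold higher under cantharidin and 1.62-fold lower under OA, but its 4 probes did not move together, and the median over them gave log2 differences of 0.12 and -0.48, both within the threshold.

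Where a gene had several probes, they could be compared. This was possible for 9 of the proteasome genes, with a median range of 0.38 between probes of a gene on the log2 scale under cantharidin and 0.56 under OA. Over the 2814 genes with several measured probes, the median range was 0.59 and 0.62. Between the agents the order was the other way, with a median range of 1.09 for the 9 proteasome genes and 0.54 over all genes with several probes. For PSME4, the second probe read 380 in control cells, 191 under cantharidin and 1608 under OA, so it was 1.81-fold lower under cantharidin, against 3.69-fold higher on the first, and the median over both was 0.51. The OA values of its probes, 1.74 and 1.83, differed by 0.08. For PSMF1, the other probes gave -1.20, 0.66 and -0.42 under cantharidin and -0.71, -0.26 and 0.34 under OA. The second PSMD2 probe was 3.42-fold lower under OA and the second PSMD1 probe 2.43-fold lower, against 1.09-fold and 1.09-fold on the brighter ones. The second PSMA1 probe was measured only under cantharidin, at least 1.72-fold above control, while the brighter one differed by 1.05-fold. The PSMD5 probes differed by 0.68 under cantharidin and 0.62 under OA. The second PSMD5 probe was 1.68-fold lower under OA, past the threshold. Between the agents it was 1.80-fold lower under OA, against 1.37-fold higher on the brightest. PSMB1 and PSMD10 passed the threshold in the same direction on each of their probes. Whether probes bound transcript variants or near-identical processed copies of these genes was not tested.

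**Figure D4:**
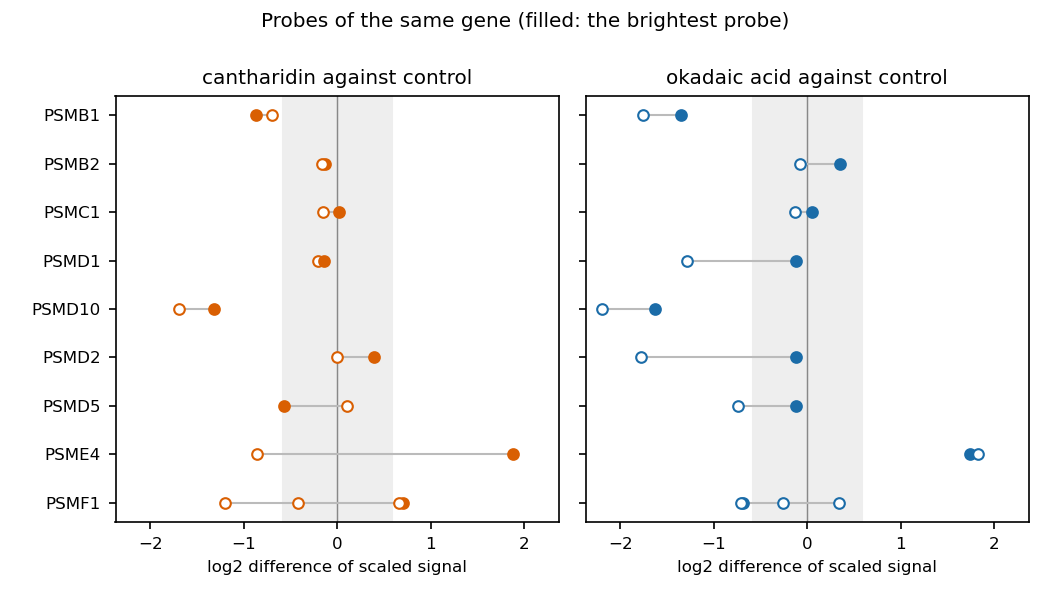
Log2 difference from control for each probe of the 9 proteasome genes with several probes well above background on all arrays, under cantharidin (left) and OA (right), with the brightest probe filled, the others open and the grey band marking 1.5-fold. Under cantharidin the probes of PSME4 and PSMF1 lie beyond the band on both sides of 0, and the PSME4 probes nearly coincide under OA.

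Compared directly, 7 of 47 proteasome genes were past 1.5-fold higher under OA than under cantharidin, against 29.5% of all genes, and 11 were past 1.5-fold lower, against 22.3%. The median was -0.09, or 0.30 without scaling, beside 0.13 and 0.52 over all genes. None of the 17 genes of the 19S particle was higher under OA and 7 were lower, with a median of -0.52, which stayed below 0 in each alternative, from -0.67 to -0.13. The core had 2 genes higher and 2 lower and a median of -0.02, which was 0.37 without scaling. On the brightest probes, PSMG2 had the largest difference between the agents, 4.08-fold higher under OA, followed by PSMD7 at 3.21-fold lower and PSME2 at 3.19-fold higher. The second PSME4 probe was further apart than these, 6.42-fold higher under OA than under cantharidin, while the brightest stayed within 1.5-fold, and the second PSMD2 probe was 3.41-fold lower. The other 19S genes lower under OA than under cantharidin were PSMC5 (2.55-fold), PSMD13 (2.30-fold), PSMD8 (2.19-fold), PSMD11 (1.94-fold), PSMD3 (1.64-fold) and PSMC4 (1.60-fold).

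Several genes lay close to the threshold. Just past it under cantharidin were PSMD9 at 1.53-fold and PSMD14 at 1.55-fold higher, and just short of it PSMA3 and PSMD5, each 1.49-fold lower. Under OA the nearest past it were PSMD11 at 1.54-fold higher and PSMC6 at 1.54-fold lower, and the nearest short of it PSMB10 at 1.497-fold and PSMA7 at 1.48-fold lower. Between the agents, PSMC4 at 1.60-fold and PSMD3 at 1.64-fold lower passed it, while PSMB8 at 1.49-fold lower and PSMB3 at 1.48-fold higher did not.

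The promoters of these genes were read for short motifs known from proteasome and immunoproteasome regulation. RefSeq windows of GRCh38.p14, from 250 bases before to 50 bases after the start, were found for 42 of the 48 genes and 27305 genes in all. The interferon response core GAAANNGAA, on either strand, was present in 7 of the 42 windows (16.7%) and in 8.29% of all. These 7 are shown because they include the PA28 genes and the immunoproteasome gene PSMB10, each with up to 30 bases on either side of the first match, 5′ to 3′ on the strand of the gene and with the match in capitals (on the PSME1 line it reads on the opposite strand).
PSMA4 (chr15:78540155-78540203, plus strand): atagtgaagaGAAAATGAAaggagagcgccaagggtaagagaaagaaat
PSMB4 (chr1:151399475-151399543, plus strand): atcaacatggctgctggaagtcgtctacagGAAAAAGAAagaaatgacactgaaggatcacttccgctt
PSMB10 (chr16:67936833-67936901, minus strand): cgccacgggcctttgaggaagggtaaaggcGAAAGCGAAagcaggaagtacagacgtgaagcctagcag
PSMC2 (chr7:103347606-103347672, plus strand): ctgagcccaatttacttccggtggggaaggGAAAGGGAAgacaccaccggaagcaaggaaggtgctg
PSME1 (chr14:24136170-24136223, plus strand): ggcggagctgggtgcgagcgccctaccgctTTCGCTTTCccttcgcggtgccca
PSME2 (chr14:24146600-24146668, minus strand): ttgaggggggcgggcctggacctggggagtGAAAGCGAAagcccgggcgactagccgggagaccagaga
PSMG4 (chr6:3258884-3258952, plus strand): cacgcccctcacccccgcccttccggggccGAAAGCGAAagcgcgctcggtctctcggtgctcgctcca

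The 3 windows of PSMB10, PSME2 and PSMG4 hold the same match, GAAAGCGAA, within 33 bases before the start. PSME1 holds these letters on the opposite strand, 6 bases after the start. Of the 7 genes, 5 were at least 1.5-fold lower under cantharidin and 0 higher, with a median of -1.21. They were PSMA4, PSMB10, PSME1, PSME2 and PSMG4, whose values are given above, and PSMB4 and PSMC2 were within 1.5-fold. Of the 34 other genes with a window, 9 were higher and 5 lower, with a median of 0.06. Under OA, 1 of the 7 was higher (PSME2) and 3 were lower, with a median of -0.58, against 7 higher and 10 lower of 33 others and a median of -0.12. Over all named genes compared, the shares under cantharidin were 26.3% higher and 33.6% lower with the core, and 27.4% and 34.7% without. Under OA these shares were 28.6% higher and 24.1% lower with the core, and 28.0% and 29.7% without. A match is a string of letters and not evidence of binding.

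The antioxidant response element core TGACNNNGC, the letters bound by the proteasome regulators NFE2L1 (NRF1) and NFE2L2 (NRF2), was found on either strand in 13 of the 42 windows (31.0%) and in 13.6% of all. Of the 13 genes, 4 were higher and 4 lower under cantharidin, with a median of -0.35, against 5 and 6 of 28 without it, with a median of -0.03. Over all named genes the shares under cantharidin were 29.0% higher and 32.5% lower with the core, and 27.1% and 35.0% without. Under OA, 5 were higher and 1 (PSME1) lower, with a median of 0.10, against 3 and 12 of 27, with a median of -0.56. Over all named genes the shares under OA were 30.4% higher and 28.3% lower with the core, and 27.6% and 29.5% without. The 5 genes higher under OA are shown, a choice made after their values were seen, again with the match in capitals. The PSMC4 match lies 27 bases after the start and is shown with 10 bases on either side, and those of PSMC4 and PSME4 read on the opposite strand.
PSMC4 (chr19:39971182-39971210, plus strand): acagaggccgGCTTGGTCActatggagga
PSMD12 (chr17:67366704-67366772, minus strand): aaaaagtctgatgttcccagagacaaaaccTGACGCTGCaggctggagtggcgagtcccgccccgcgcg
PSME2 (chr14:24146747-24146815, minus strand): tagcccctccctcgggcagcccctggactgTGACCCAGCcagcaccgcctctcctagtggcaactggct
PSME4 (chr2:53970989-53971057, minus strand): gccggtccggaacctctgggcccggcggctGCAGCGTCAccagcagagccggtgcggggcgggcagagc
PSMG1 (chr21:39183596-39183664, minus strand): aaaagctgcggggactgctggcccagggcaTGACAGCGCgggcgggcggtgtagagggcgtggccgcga

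PSME1 and PSME2 each carry both cores. In PSME2 the antioxidant core lies 175 and the interferon core 28 bases before the start. In PSME1 they lie 86 bases before and 6 bases after the start. The CCAAT box (CCAAT, either strand) was in 19 of the 42 windows (45.2%) and in 35.7% of all, and the TATA box (TATAAA, either strand) in 5 (11.9%) and in 11.95%. The windows had a median GC content of 62.0%, beside 58.3% over all promoters. The transcript of NFE2L1 itself, on 1 probe, read 36134, 48732 and 38973 and was within 1.5-fold of control under both agents. The 1 probe of NFE2L2 was too dim to be measured on the 3 arrays, so the level of that transcript is not known here.

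A list of 32 genes that work with the proteasome was examined beside the subunits, and 31 had a probe. Under cantharidin, 10 of 29 compared were higher and 4 lower, with a median log2 difference of 0.34, and under OA 9 were higher and 6 lower, with a median of -0.15. Between the agents, 4 were higher under OA and 12 lower, with a median of -0.25. The shares higher were 34.5% under cantharidin and 31.0% under OA, near the 27.5% and 28.1% of all genes, and the shares lower 13.8% and 20.7%, beside 34.1% and 28.8%. Between the agents the shares were 13.8% higher and 41.4% lower, beside 29.5% and 22.3% of all genes. Without scaling, the OA median was 0.11 and that between the agents 0.14. Genes with the largest differences are described here.

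ZFAND2A and ZFAND5 encode zinc finger proteins that bind the proteasome, the former under arsenite stress. ZFAND2A read 1737, 10183 and 34784, with OA highest, at 6.45-fold and 16.8-fold. ZFAND5 read 10596, 46882 and 35559, with cantharidin highest, at 4.87-fold and 2.81-fold, and 1 of its 3 probes differed, at -0.10 and 0.49 on the log2 scale. AKIRIN2, which carries proteasomes into the nucleus, read 1170.2, 4499 and 3572 and was 4.23-fold and 2.56-fold higher. In the other direction, PAAF1, an assembly factor that binds the ATPases of the cap, read 8281, 825 and 1107 and was 9.12-fold and 8.93-fold lower, and its second probe gave -3.07 and -3.25. POMP, the chaperone that matures the core, read 749, 239 and 599.6, with cantharidin alone past the threshold at 2.85-fold lower, and OA 1.49-fold lower.

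USP14, a ubiquitin-removing enzyme bound to the cap, read 353, 182 and 130.4, or 1.76-fold and 3.23-fold lower. The shuttle factors that bring ubiquitinated proteins to the cap varied. UBQLN1 read 1736, 2786 and 6253 and was 1.77-fold and 3.02-fold higher, and UBQLN2 read 1876, 5576 and 4089, 3.27-fold and 1.83-fold higher. SQSTM1 (p62), which also serves autophagy, read 45850.0, 95793 and 46619.7, with cantharidin alone high at 2.30-fold. UBQLN4 went the other way, at 420, 221 and 224, or 1.73-fold and 2.24-fold lower.

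ATF3, a stress-induced transcription factor, had the largest difference of the list, at 1688, 130202 and 25724, or 84.9-fold and 12.8-fold higher on its brightest probe. For cantharidin its other probes lay between -0.15 and 6.38, and for OA between -0.47 and 2.94, all as log2 differences. The E1 enzyme gene UBA6 read 63.2, 48.3 and 166, close to the lowest signal measured on these arrays, and was 2.20-fold higher under OA.

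**Figure D5:**
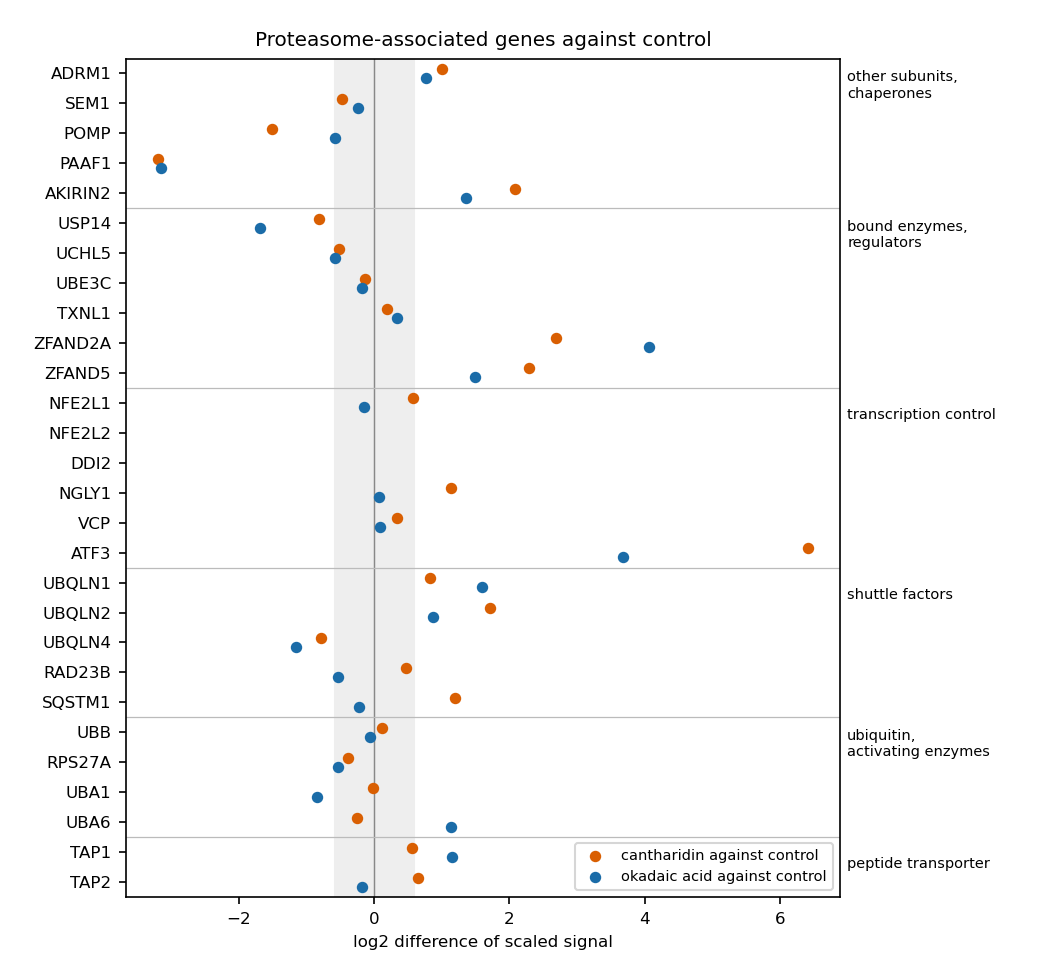
Log2 difference from control after scaling of 26 proteasome-associated genes on 1 array per group, under cantharidin (orange) and OA (blue), with the grey band marking 1.5-fold. ATF3, ZFAND2A and ZFAND5 lie far to the right and PAAF1 far to the left under both agents.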

How the data were processed

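Total RNA of PANC-1 cells (control, cantharidin, OA; 1 array each) was hybridised to Agilent 1-colour arrays, and groups were taken from sample titles. The authors deposited scanner intensity values per spot, made with Feature Extraction 11.0.1.1 and, per the file headers, background-subtracted within each array, with annotation on hg19. A second deposited table held normalized log2 values of 30923 probes, with 47 of the 48 genes, and served as an alternative; how it was made is not given in the sources used here. Log2 processed intensity was averaged over unflagged spots (34041 probes, none saturated, with 24768, 25103 and 23071 detected above background in control, cantharidin and OA order), and each array's 75th percentile was subtracted. The arrays shared 1 slide and 1 scan, and slide position and group cannot be told apart.

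Accessions, without version, were matched to RefSeq symbols of GRCh38.p14 (25705 probes). The builds differ, so probes have no coordinates here. The brightest probe by mean log2 signal stood for a gene. A probe was compared when well above background on at least 1 of both arrays. Where it was dim on 1, the fold is "at least", against the higher of its own signal and the lowest signal well above background on that array (35.0, 21.9 and 58.0). No test or p-value was computed, and the number of arrays limits the precision. The script was tested on simulated data. Genes, lists and motifs were chosen with earlier results of these data known. Signals were given for proteasome genes past 1.5-fold in any comparison or with disagreeing probes, and for at most 12 associated genes by largest difference. The keratins, VIM, CPA1, PECAM1, CD14, PSMB8, PSMD6, NFE2L1, NFE2L2, ADRM1, SEM1 and UBQLN4 were named beside this rule, after their values were seen. Some associated genes are counted with their list but not reported here. ECPAS had no matched probe, and NFE2L2 and DDI2, with 1 probe each, were dim on all arrays.

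Alternatives were normexp background correction (offset 50, on median spot and background intensity), median scaling, the 75th percentile of detected probes, no scaling, quantile normalization, no filter, detection on all 3 arrays, the deposited table, a 2-fold threshold, the median over probes, dim signals at the array floor, centring within 16 array blocks, and background shares in the signal range of the proteasome genes. Scripts ran in Python 3.11.15 (pandas 2.3.3, numpy 2.4.6, matplotlib 3.10.9) and R 4.3.3 (limma 3.58.1).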

Additional observations from a re-analysis of the deposited data

Results flagged for a closer look

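The genes PSME2 and PSMF1 were at least 1.5-fold away from control in opposite directions under the agents. PSME2 had a log2 difference of -0.95 under cantharidin and 0.72 under OA, and 1.67 between the agents. PSMF1 had 0.71 under cantharidin and -0.69 under OA on its brightest probe, and of its 3 other probes 1 had both of these signs. Whether the agents differ for either gene was not tested, since each group had 1 array, and the control array is common to both comparisons.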

How the results depend on the processing

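No paired analysis was possible because each group had 1 array. No proteasome gene past 1.5-fold changed sign in any of the 12 alternatives. With the 2-fold threshold set aside, 17 of 21 calls under cantharidin, 18 of 24 under OA and 13 of 18 between the agents held in every alternative. Calls that fell short of the threshold in at least 1 alternative were PSMD14, PSMD9, PSME4 and PSMF1 under cantharidin. Under OA they were PSMC5, PSMC6, PSMD4, PSMD11, PSMD13 and PSMF1, and between the agents PSMB10, PSMC4, PSMD3, PSMD11 and PSMF1. 

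Without scaling, the subunit median was -0.21 under cantharidin, 0.13 under OA and 0.30 between the agents (14 genes higher), the 20S medians were -0.38, -0.16 and 0.37, the 19S medians 0.26, 0.20 and -0.13, and the associated medians 0.21, 0.11 and 0.14 (5 lower between the agents). Median scaling gave -0.25 for the subunits under OA and -0.25 between the agents (18 lower), -0.53 and -0.17 for the core, -0.18 and -0.67 for the 19S particle, and -0.27 and -0.40 for the associated genes. Under OA, quantile normalization gave -0.277 for the core, 0.0697 for the 19S particle and -0.018 for the associated genes, and the deposited table gave -0.289, 0.0705 and -0.017. A 2-fold threshold left 5 subunits higher and 9 lower under OA, 4 higher between the agents, and of the associated genes 2 lower under cantharidin and 2 higher and 5 lower between the agents. Without a filter on dim probes the associated median under cantharidin was 0.18. The 19S median minus the 20S median under cantharidin was 0.48 with normexp and 0.79 with centring in blocks. Scaling shifts all genes alike: the median of all genes ran from -0.30 to -0.09 under cantharidin, from -0.11 to 0.26 under OA and from -0.02 to 0.52 between the agents. Whether other causes contribute was not tested. Signals near the lowest measured on an array, such as those of PSMB11, have only bounds.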
